A study of Mus musculus with 4 samples.

Results

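The 38 genes described here encode ephrins and their Eph receptors, Slits and their Robo receptors, and netrins with Draxin and the netrin receptors. They were chosen by symbol, with earlier results of these data known. The rule took every Epha, Ephb, Efna and Efnb gene with a number that the platform annotation names. It also took Slit1 to Slit3, Robo1 to Robo4, Ntn1, Ntn3, Ntn4, Unc5a to Unc5d, Dcc, Neo1 and Draxin. The chosen genes are read by 79 of the 45101 probe sets of the array and make up 38 of the 18193 genes named there. RNA came from muscle pieces of mouse embryos at E13.5 and went onto 4 Affymetrix arrays, 1 per group: wild-type (WT) limb, limb of MyoD-/- embryos, WT back, and back of Myf5-/- embryos. All 4 groups are labelled BALB/c, limb pieces as fetal limb muscle and back pieces as fetal back muscle. MyoD and Myf5 are transcription factors that make embryonic cells become muscle. The labels do not describe the mutant alleles, nor say how many embryos gave each RNA. The series title sets the data in the study of what muscle contributes to the development of motor neurons.

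Guidance genes tell a growing axon, and many migrating cells, where to go. Ephrins are cell-surface ligands, held by a lipid anchor in the A class and by a membrane-spanning part in the B class, and contact with an Eph receptor usually makes the receptor-bearing cell withdraw. Slits are secreted repellents read by Robo receptors, while netrins attract through Dcc and Neo1 and repel through the Unc5 receptors. In the limb, ephrins of the mesenchyme steer Eph-bearing motor axons into its dorsal or ventral muscles, and Epha3 is known on the motor axons that run to the muscles of the back. The same ligands and receptors are also made by mesenchyme, vessels and muscle progenitors, and tissue RNA of this kind holds the transcripts of all of them. Motor neuron cell bodies lie in the spinal cord, outside a piece dissected as limb muscle.

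Signals below are on one scale, with each array scaled to a trimmed mean of 500, and a signal under 100 was treated as having no level. A gene was counted as different when a ratio reached 2-fold with the brighter array at 200 or more. Each group had 1 array, so no value has a replicate error, no test over samples was possible, and a difference is one between single arrays. The only spread at hand is that between probe sets of the same gene, whose median SD of the log2 ratio over all genes was 0.40 in MyoD-null over WT limb (the limb pair), 0.38 in the array labelled Myf5-null over WT back (the back pair) and 0.40 in WT limb over WT back. The last of these shares an array with each of the other two, so its ratios are not independent of theirs. Myod1, the gene of MyoD, was 688 in MyoD-null limb against 1439 in WT limb. Myf5 was 508 in WT back and 583 in the array with the Myf5-null label, so that array is named by its label throughout, and its direction against WT back rests on that label. The skeletal muscle markers fixed for this work, 20 genes, were all at 100 or more in every array. Of 15 endothelial markers 14 or 15 reached 100 in each array, and of 17 markers of neurons and their axons 12 to 16 did. Of all probe sets on the array, 56.0% to 63.6% reached 100. These counts therefore do not by themselves show which other cells were present. Fewer cells of a type and less RNA per cell cannot be told apart in such pieces. The 3 prime over 5 prime signal of Gapdh was 12.2, 8.06, 6.45 and 9.46 in the order WT limb, MyoD-null limb, WT back and labelled Myf5-null back, which is the order used for every set of 4 values below.

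Of the 38 genes, 31 reached 200 in at least 1 array, 25 were at 100 or more in all 4, and 2, Epha10 and Robo3, stayed under 100 in all 4. Epha1, Epha6, Ephb6, Robo2 and Unc5a completed the 7 genes that never reached 200, and the highest of their signals was 177, for Ephb6 in MyoD-null limb. WT limb and WT back differed at least 2-fold for 7 of 33 measured genes, 4 higher and 3 lower in limb, where 5.30% and 3.50% of all measured genes were. In the limb pair 1 of 35 was higher and 2 lower, near the 2.30% and 5.21% of all measured genes. In the back pair 1 of 31 was higher and 1 lower, near the 5.50% and 2.48% of all measured genes. Epha3 was the clearest case, at 1294 and 1579 in the limb arrays and 4649 and 4801 in the back arrays.

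**Figure D1:**
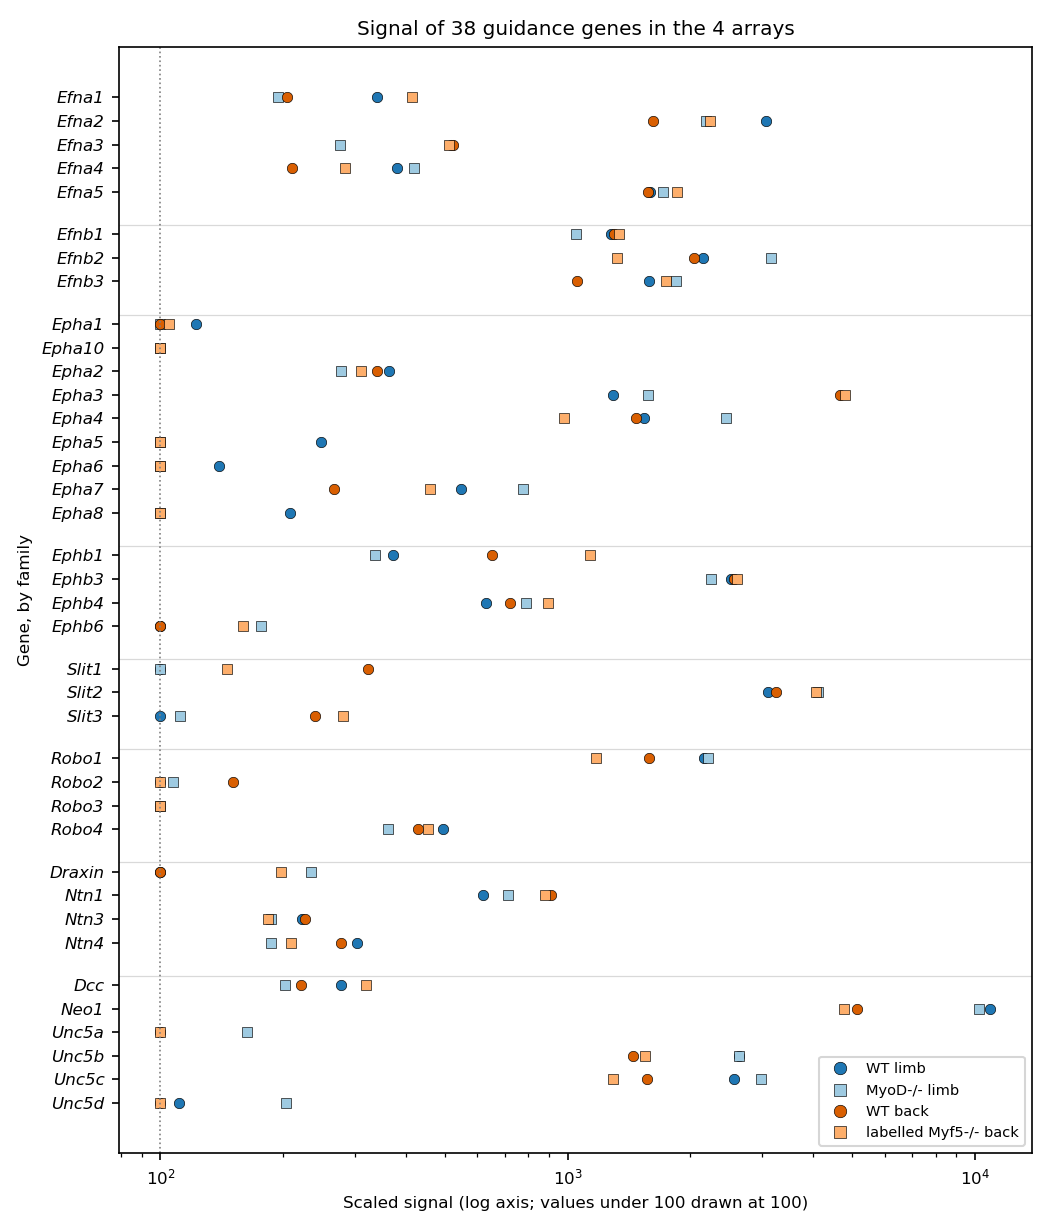
Scaled signal (log axis) of the standing probe set of each of the 38 genes, grouped by family, in WT limb (dark blue circles), MyoD-null limb (light blue squares), WT back (dark orange circles) and the array labelled Myf5-null back (light orange squares), 1 array each; values under 100 are drawn at 100. The blue and orange symbols lie apart for Epha3 (1294 and 1579 against 4649 and 4801) and for Neo1, Unc5b and Unc5c, and mix for most other genes.

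Promoter sequence was available for 33 of the 38 genes, in 38 windows of RefSeq (GRCm38.p6). The stretches before the start of Epha3 (higher in both back arrays), Neo1 (higher in both limb arrays) and Efnb2 (opposite signs in the limb and the back pair) are shown because the results turn on these genes. They lie at chr16:63864176-63864425 (minus strand), chr9:59036442-59036691 (minus strand) and chr8:8661243-8661492 (minus strand). Each is printed from its upstream end to the base before the start, 5' to 3' on the strand of the gene, and capitals mark the E-box CANNTG, the motif that MyoD and Myf5 bind, which reads alike on both strands.
Epha3: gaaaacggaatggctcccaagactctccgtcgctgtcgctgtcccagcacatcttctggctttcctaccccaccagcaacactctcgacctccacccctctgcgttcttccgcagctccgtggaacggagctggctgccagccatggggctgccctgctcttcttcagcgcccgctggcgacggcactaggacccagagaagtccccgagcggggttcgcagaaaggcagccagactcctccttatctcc
Neo1: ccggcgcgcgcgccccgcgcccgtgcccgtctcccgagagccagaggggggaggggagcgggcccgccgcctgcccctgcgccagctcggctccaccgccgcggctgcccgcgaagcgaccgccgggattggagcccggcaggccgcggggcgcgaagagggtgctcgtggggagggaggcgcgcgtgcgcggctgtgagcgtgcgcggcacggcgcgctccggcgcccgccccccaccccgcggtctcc
Efnb2: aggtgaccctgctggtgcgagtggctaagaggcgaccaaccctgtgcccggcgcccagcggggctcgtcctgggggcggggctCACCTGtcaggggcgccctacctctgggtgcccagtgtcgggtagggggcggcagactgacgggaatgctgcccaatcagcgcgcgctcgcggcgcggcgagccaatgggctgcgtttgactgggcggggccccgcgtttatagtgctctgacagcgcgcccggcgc
Efnb2 holds 1 such motif in its 250 bases, while Epha3 and Neo1 hold 0. Among the windows of all 33 genes, 16 of 38 held CANNTG, or 42.1%, against 66.2% of 32851 windows of the same length over all genes. The inner form CAGCTG, which CANNTG includes, was in 6 of 38 (15.8%) against 13.0%. The 3 stretches have a GC content of 62.8%, 83.2% and 72.0%, with a median of 52.4% over all windows. A match is a description of letters, not of binding.

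The comparison of limb with back asked how the guidance genes of the pieces dissected as limb and as back muscle differ. It was read in WT limb over WT back, and also in MyoD-null limb over the array labelled Myf5-null back. The latter is called the mutant pair for short, although both its arrays are mutant by label and Myf5 was not lower in the back one. Its arrays differ in mutant label as well as in body region, and these cannot be told apart there. In the WT pair 4 genes were at least 2-fold higher in limb, Epha5, Epha7, Epha8 and Neo1, or 12.1% of the 33 measured, where 5.30% of all measured genes were. Lower in limb were 3, Epha3, Slit1 and Slit3, or 9.09%, where 3.50% of all measured genes were. In the mutant pair 5 were higher, Efnb2, Epha4, Neo1, Unc5c and Unc5d, against 3.61% of all measured genes, and 4 were lower, Efna1, Epha3, Ephb1 and Slit3, against 7.73%. Efnb2 and Epha4 were near 0 in the WT pair (0.08 and 0.06), and Efna1 was above 0 there (0.73). By their standing probe sets, Neo1, Epha3 and Slit3 were counted the same way in both pairs. Of the 4 genes higher in the WT pair 1 was counted again in the mutant pair, where this held for 12.3% of the 774 such genes on the array, and of the 3 lower genes 2 were, where this held for 22.1% of 511.

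Epha3, the receptor of axons to back muscle, had signals of 1294 (WT) and 1579 (MyoD-null) in limb, and of 4649 (WT) and 4801 (labelled Myf5-null) in back. Both back arrays lay far above both limb arrays, and the lowest back signal stood 1.56 (log2) above the highest limb signal. The log2 ratio of limb over back was -1.85 in the WT pair and -1.60 in the mutant pair. A second probe set of Epha3 gave 630, 561, 2174 and 1927, with -1.79 in the WT pair. The genotype pairs were close, with 0.29 in the limb and 0.05 in the back. Under the alternatives tried, the WT ratio ran from -1.85 to -1.04 and stayed past 2-fold in all 8. The other 2 probe sets stayed at or under 132 in every array.

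**Figure D2:**
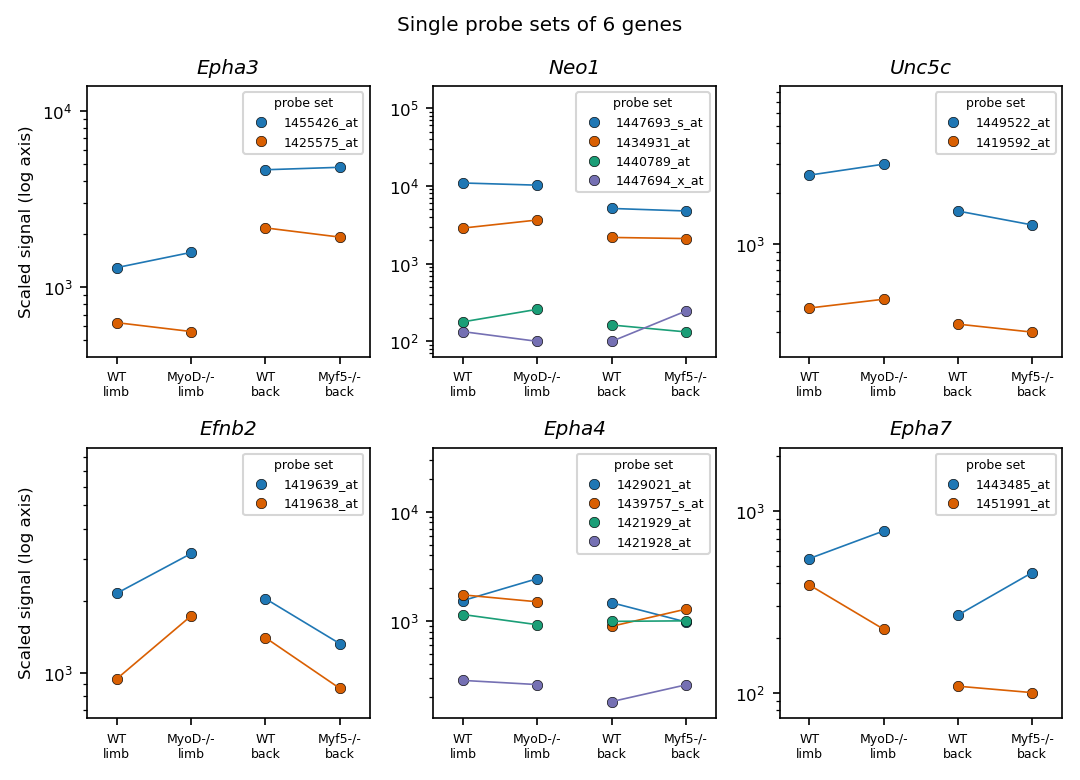
Scaled signal (log axis) of every probe set that reached 200 in at least 1 array, for Epha3, Neo1, Unc5c, Efnb2, Epha4 and Epha7, in the 4 arrays; lines join the arrays of one region, values under 100 are drawn at 100, and the array marked Myf5-/- is so by its label. Both probe sets of Epha3 are higher in the back, both of Efnb2 rise with the MyoD-null label in limb and drop with the Myf5-null label in back, and the probe sets of Epha4 cross.

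Slit3 and Slit1, secreted repellents, were the other genes higher in back. Slit3 was under 100 and 112 in the limb arrays and 239 and 280 in the back arrays, without overlap, so WT limb was at least 2.39-fold lower than WT back. Slit1 was under 100 in both limb arrays, 324 in WT back and 146 in the back array with the Myf5-null label, at least 3.24-fold lower in WT limb. These levels lie near the floor, and with a floor of 200 neither ratio reached 2-fold. Ephb1, an EphB receptor known on motor axons to ventral limb muscle, was 372 and 337 in limb and 651 and 1137 in back, with log2 ratios of -0.81 in the WT pair and -1.76 in the mutant pair.

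Most netrin receptors went the other way. All 5 that were measured in the WT pair lay above 0 there, with a median log2 ratio of 0.71, where 53.2% of all measured genes lay above 0 and their median was 0.04. In the mutant pair Dcc lay below 0 (-0.66) and the other netrin receptors above it. With so few members this stands as a description only. Neo1, a relative of Dcc that binds netrins and repulsive guidance molecules and is known to promote muscle fusion, was 10916 and 10232 in limb and 5133 and 4761 in back. The groups did not overlap, and the lowest limb signal was 0.995 (log2) above the highest back signal, just short of 2-fold. The probe set behind these values carries a name that marks probes shared between transcripts. A second one gave 2871, 3648, 2174 and 2103, again with both limb arrays higher and a log2 ratio of 0.40 in the WT pair. A dimmer one, at 178, 259, 162 and 132, had both limb arrays higher as well. The remaining dim probe sets of Neo1 went the other way in the mutant pair, at -1.30 and -0.21. The first of these was under 100 in MyoD-null limb and 246 in the labelled Myf5-null back.

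Unc5b and Unc5c, receptors for netrin repulsion, followed the same order. Unc5b, also known in vessels, was 2634 and 2640 in limb and 1444 and 1551 in back, with 0.87 in the WT pair and 0.77 in the mutant pair. Unc5c was 2562 and 2978 in limb and 1568 and 1295 in back, with 0.71 and 1.20. Dimmer probe sets had the same sign in the WT pair, 0.68 for Unc5b and 0.32 for Unc5c. Unc5d was 111 and 204 in limb and under 100 in both back arrays. Dcc, the attractive receptor, did not separate the regions, at 278, 202, 222 and 320.

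Of the EphA genes, Epha7 was 547 and 776 in limb and 267 and 458 in back, with no overlap and log2 ratios of 1.03 and 0.76. Its second probe set gave 392, 223, 109 and under 100, with 1.85 in the WT pair. Epha5 and Epha8 were counted in the WT pair only through WT limb, where they were 248 and 209, while their standing probe sets were under 100 in the other 3 arrays. Another probe set of Epha5 was instead under 100 in the first 3 arrays and 241 in the labelled Myf5-null back, so the probe sets of this gene contradict each other. Robo1, a Slit receptor, was 2161 and 2214 in limb and 1585 and 1172 in back, and the ephrin Efna4 was 381 and 419 against 210 and 285, each without overlap.

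**Figure D3:**
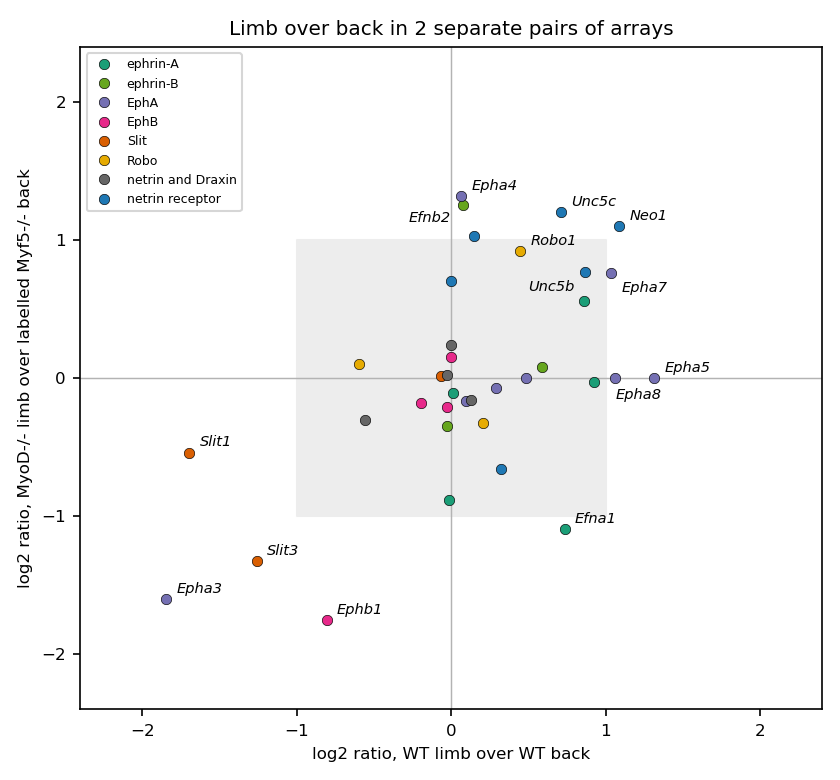
Log2 ratio of limb over back in the WT arrays (x axis) and in the mutant arrays (y axis) for the 36 genes at 100 or more in at least 1 array, coloured by family; the grey square marks ratios under 2-fold in both. Epha3 (-1.85, -1.60) and Slit3 (-1.26, -1.33) lie at the lower left, Neo1 (1.09, 1.10) at the upper right, and Efna1 (0.73, -1.09) changes sign.

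Counted at any size, both limb arrays were above both back arrays for 9 of 36 genes (Efna4, Efnb2, Epha4, Epha7, Robo1, Neo1, Unc5b, Unc5c and Unc5d), where 17.1% of all measured genes were. Both were below for 7 (Efnb1, Epha3, Ephb1, Ephb3, Slit1, Slit3 and Ntn1), where 18.3% were. These shares, 25.0% and 19.4%, lie near the background. For Efnb2, Efnb1, Ephb3 and Epha4 the nearest arrays of the 2 regions differed by less than 0.10 (log2). At 2-fold or more between the nearest arrays, 0 genes had both limb arrays higher, where 0.462% of all genes did, and 2 had both lower, Epha3 and Slit3, where 0.493% did. Markers of other cells moved with position as well. In WT limb over WT back all 20 skeletal muscle markers were below 0 (summed signals of 99553, 64858, 195972 and 123310). Of neuron and axon markers 15 of 16 were below 0, with summed signals of 7268, 7380, 11551 and 12672 and Snap25 under 100 in all arrays. All 10 measured macrophage markers were below 0 too, and 11 of 12 epidermal ones above. The part of these cells in the ratios of the guidance genes was not tested.

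Setting MyoD-null against WT limb asks how guidance genes read in limb pieces labelled MyoD-/-. Most differed little: 25 of 35 measured genes, or 71.4%, stayed within 1.5-fold, as did 75.7% of all measured genes. The median log2 ratio was 0.03 over the 35 and -0.05 over all genes. At least 2-fold higher was 1 gene, Draxin, or 2.86%, where 2.30% of all measured genes were. The genes at least 2-fold lower were 2, Epha5 and Epha8, or 5.71%, where 5.21% were. All 3 had 1 of the 2 arrays under 100, and the split turned with the scaling, to 2 higher and 1 lower after quantile normalization and 2 higher and 0 lower after loess.

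Draxin, a secreted repellent that binds Dcc, was under 100 in both WT arrays and reached 234 in MyoD-null limb and 198 in the labelled Myf5-null back. It was thus at least 2.34-fold higher in MyoD-null limb, and at least 1.98-fold higher in the labelled Myf5-null back, short of the threshold. Its second probe set was under 100 in all 4 arrays. The standing probe sets of Epha5 and Epha8 were 248 and 209 in WT limb and under 100 in MyoD-null limb, at least 2.48-fold and 2.09-fold lower. A dimmer probe set of Epha5 stayed above the floor in both, at 147 in WT and 117 in MyoD-null limb (-0.33).

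Of the ephrin-A ligands, 2 of 5 were above 0, where 46.1% of all measured genes were, and none reached 2-fold. Efna3 was 517, 277, 522 and 510, so MyoD-null limb was the low array (-0.90), and its second probe set gave 340, 195, 288 and 405, low in the same array (-0.81). Efna1, a ligand known in vessels, was 340, 194, 205 and 414, with -0.81 in the limb. Efna2, which with Efna5 is known from topographic nerve maps, was 3072, 2188, 1619 and 2233, with -0.49, and WT limb was the high array. Its second probe set gave 326, 286, 370 and 367, with -0.19, and there both back arrays were above WT limb. Efna4 and Efna5 moved little, at 0.14 and 0.11, with Efna5 at 1590, 1717, 1576 and 1851.

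The ephrin-B ligands are led by Efnb2, the mark of arterial endothelium that is also made in limb mesenchyme. Efnb2 was 2148 (WT) and 3149 (MyoD-null) in limb, and 2037 (WT) and 1322 (labelled Myf5-null) in back. MyoD-null limb was the highest of the 4 arrays and the labelled Myf5-null back the lowest, with log2 ratios of 0.55 and -0.62. A second probe set gave 943, 1728, 1400 and 859, with 0.87 and -0.70, the same signs. Efnb1 was 1275, 1046, 1299 and 1333, and Efnb3, known as a midline barrier in the spinal cord, was 1583, 1844, 1051 and 1746, low in WT back only.

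No Eph receptor at 200 or more in both limb arrays differed 2-fold in the limb pair. Ephb3 was 2514, 2243, 2560 and 2597, with -0.16 in the limb. Ephb4, the mark of venous endothelium, was 631, 791, 724 and 895, with 0.33. Epha2 was 363, 277, 340 and 310, with -0.39. Epha4, the receptor of motor axons to dorsal limb muscle, read 1537, 2445, 1470 and 978 in its standing probe set, with 0.67 in the limb and -0.59 in the back. Its other probe sets did not follow: the probe set at 1734, 1498, 893 and 1284 gave -0.21 and 0.52, and the one at 1145, 923, 991 and 1002 gave -0.31 and 0.02. No direction is given for Epha4 for this reason. Epha7 also had probe sets that went apart in the limb, at 0.51 and -0.81.

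Among Slits, Robos and netrins, Slit2 was the gene with the largest Slit ratio in the limb, at 3104 and 4116 (0.41), with 3250 and 4071 in the back (0.32), so each array labelled mutant was above its WT. A dimmer probe set gave -0.45 in the limb, at 137 and under 100. Robo1 differed by 0.03 and Robo4, the Robo of endothelium, was 495, 363, 430 and 454, with -0.45. Ntn1, the netrin of the floor plate that is also made outside the nervous system, was 621, 712, 912 and 880, with 0.20. Ntn4, a netrin of basement membranes, was 304, 187, 278 and 209, and Ntn3 was 222, 187, 226 and 184. Both were lower in each array labelled mutant than in its WT, by -0.70 and -0.41 for Ntn4 and by -0.25 and -0.30 for Ntn3, on the log2 scale. The limb ratio of Ntn3 was -0.04 after quantile normalization and 0.06 after loess, so its direction there did not hold.

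For the back, the array with the Myf5-null label was set against WT back. Of 31 measured genes 21, or 67.7%, stayed within 1.5-fold, where 76.2% of all measured genes did, and the median log2 ratio was 0.07 against 0.05 over all genes. At least 2-fold higher was Efna1, 414 against 205 (1.02), or 3.23%, where 5.50% of all measured genes were. At least 2-fold lower was Slit1, 146 against 324 (-1.15), again 3.23%, where 2.48% were. Both calls were lost under part of the alternatives, with Efna1 past 2-fold in 4 of 8 and Slit1 in 5 of 8. After quantile normalization or loess the split was 0 higher and 1 lower. All 16 cartilage markers were lower in this array than in WT back, with a summed signal of 7726 against 26977, and all 20 skeletal muscle markers were lower as well; the part of either in these ratios was not tested.

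Ephrin-A and EphB genes were mostly above 0 in the back pair. Of 5 ephrin-A ligands 4 were above 0, with a median of 0.44. Over all measured genes 53.9% were above 0 and the median was 0.05. Efna2 was at 0.46, with -0.01 in its second probe set, and Efna4 was at 0.44. All 4 EphB receptors were above 0 too, and with so few members neither count stands as more than a description. They ran from 0.02 for Ephb3 to 0.80 for Ephb1, and Ephb4 had 0.31. Ephb6, a receptor without kinase activity, was 160 in the labelled Myf5-null back and under 100 in WT back, with 177 against under 100 in the limb. In all, 12 of the 31 genes were below 0, from -1.15 for Slit1, and among the brighter ones were Robo1 at 1172 against 1585 (-0.44), Unc5c at 1295 against 1568 (-0.28), Efnb2 and the standing probe set of Epha4. Robo2, at 151 in WT back and under 100 in the labelled Myf5-null back, had -0.60. Endothelial markers had a median of 0.28 in this pair and -0.10 in the limb pair, with summed signals of 10096, 9584, 9569 and 10726, and were split in both, with 8 of 15 and 5 of 14 above 0. Their part in the ratios of Efnb2 and Efna1 was not tested.

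The limb pair and the back pair share no array, so their ratios can be set side by side. With both ratios at 0.50 or more in size, 3 of 36 genes had opposite signs, Efna1, Efnb2 and Epha4, where 6.45% of all measured genes did, and 3 had the same sign, Epha7, Ephb6 and Draxin, where 3.69% did. Of these, Efnb2 alone had a second probe set at 200 or more with the same signs in both pairs, and Draxin, Ephb6 and Efna1 have no second probe set above the floor, or no second probe set at all.

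**Figure D4:**
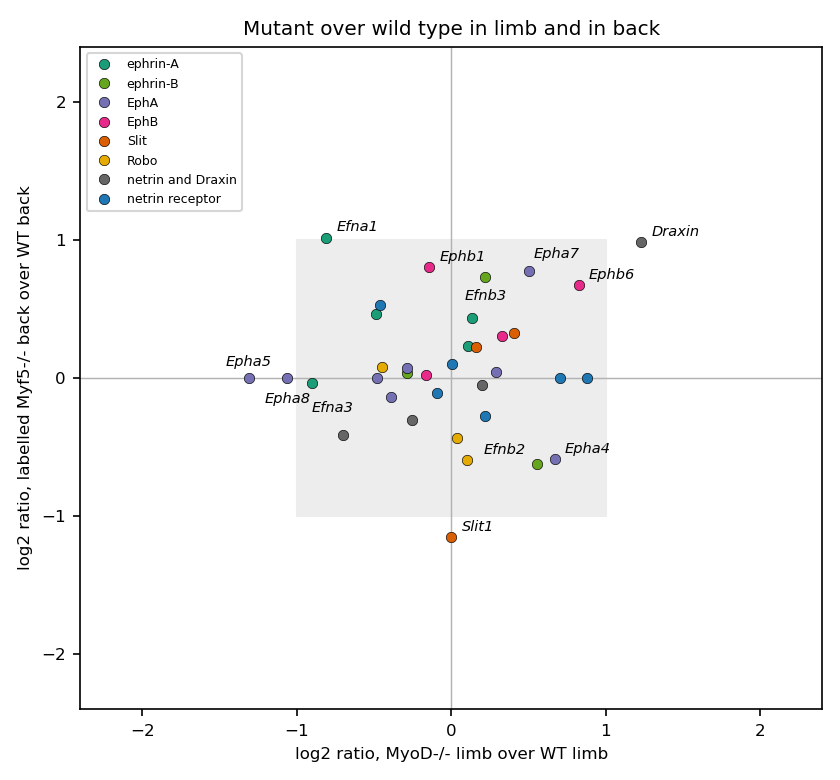
Log2 ratio of MyoD-null over WT limb (x axis) against that of the array labelled Myf5-null over WT back (y axis) for the 36 genes at 100 or more in at least 1 array, coloured by family; the grey square marks ratios under 2-fold in both. Most points lie inside the square, with Draxin (1.23, 0.98), Efna1 (-0.81, 1.02), Slit1 (0, -1.15), Epha5 and Epha8 outside it, and Efnb2 (0.55, -0.62) at the lower right within.

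Probe sets of the same gene put a limit on these directions. Of the 11 genes with 2 or more probe sets at 200 or more in the limb pair, all probe sets had the same sign for 4 (Efna2, Efna3, Efnb2 and Unc5c). In the back pair this held for 3 of 9 (Efnb2, Slit2 and Unc5c), and in WT limb over WT back for 7 of 11 (Epha3, Epha4, Epha7, Neo1, Slit2, Unc5b and Unc5c). Among the genes that failed in the back pair, Efna3 was -0.03 in its standing probe set and 0.50 in its second, and a dim shared-probe probe set of Neo1 gave 1.30 against -0.11. Dcc gave 0.53 in the standing and -0.80 in a dimmer probe set. In WT limb over WT back, Efnb1 gave -0.03 and 0.42, Efnb2 gave 0.08 and -0.57, and dim probe sets of Ntn1 and Slit2 gave 0.48 against -0.56 and 0.56 against -0.07. In the limb pair, where the standing probe sets of Neo1 and Unc5b were near 0, at -0.09 and 0.00, dimmer ones gave 0.35 and 0.54 for Neo1 and -0.53 for Unc5b, and the dim probe set of Ntn1 gave -0.48 against 0.20.

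Partners of these ligands and receptors inside the cell and at its surface, 77 genes named on the array from a list of 82, were read as well. Of 73 measured, 3 were at least 2-fold higher and 2 lower in MyoD-null limb, 1 higher and 2 lower in the labelled Myf5-null back, and 4 higher and 3 lower in WT limb over WT back. Over all measured genes the shares were 2.30% and 5.21%, 5.50% and 2.48%, and 5.30% and 3.50% in the same order, so the counts of partners lie near the background. Their median log2 ratios were 0.11, -0.04 and -0.04. The genes counted were Vav3, Arhgap39 and Cap1 (higher) with Grip2 and Kalrn (lower) in the limb pair, Kalrn (higher) with Anks1 and Dscam (lower) in the back pair, and Kalrn, Pick1, Sdc1 and Ntng1 (higher) with Chn1, Trim9 and Dscam (lower) in WT limb over WT back. Cap1, a regulator of actin, was 743, 4299, 1350 and 744, high in MyoD-null limb (2.53), and its second probe set gave 1.47. Grip2, an adaptor of ephrin-B tails, was 988, 167, 841 and 836, low in MyoD-null limb alone (-2.56) and read by 1 probe set. Kalrn, an exchange factor that acts downstream of EphB, was 889, 358, 118 and 721, low in WT back, but its dimmer probe sets did not all follow. In WT limb over WT back they ran from -0.64 to 0.996 against 2.91, and in the back pair from -0.64 to 0.68 against 2.61. Dscam, a receptor that binds netrin, reached 265 in WT back alone and stayed under 100 elsewhere, while another of its probe sets went the other way in the back pair, at 212 in the labelled Myf5-null back and under 100 in WT back (1.08). Anks1, an adaptor that binds Eph receptors, was 378, 547, 444 and 117, low in the labelled Myf5-null back (-1.92). Sdc1, a heparan sulphate carrier of the cell surface, was 8829, 7797, 3504 and 4830, high in both limb arrays, and other probe sets gave 0.77 and 1.05 against 1.33. The effectors Trio (3390, 3503, 3606 and 3640) and Adam10, the protease that cuts ephrins (4113, 4097, 4548 and 3854), stayed within 0.24 in size in each comparison.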

How the data were processed

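Affymetrix signals of 4 muscle RNA samples, 1 array per group, were analysed. The authors deposited linear intensities, 1 per probe set; per the submitters' processing notes MAS5 made them (version not given in the sources used here). Groups were taken from the titles. Arrays were rescaled to trimmed means of 500 (2% off each end, controls left out), with 100 as the lowest signal before log2 ratios. The standing probe set of a gene was its brightest by mean log2 over all arrays. A ratio against a signal under 100 is given as "at least". Probe sets with 1 symbol in the platform annotation, dated and possibly old, were used, and symbols with several genes were passed over. The percentage of all genes counted by the same rule is printed beside each count of members.

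Named genes are all members, with 4 values each where 200 was reached, other probe sets that went the other way by 0.3 or more, and up to 4 partners per comparison, of which some are given; Trio and Adam10 were added after their values were seen. Members and lists were chosen with earlier results of these data known. The alternatives are 9: no rescaling, quantile normalization, loess (span 0.3), floors of 50 and 200, a pseudocount of 100, the median over probe sets, no shared-probe probe sets and a 1.5-fold limit. Reading limb over back in the mutant arrays was chosen after seeing the data. Precision is limited by the number of arrays. The steps were tested on simulated data. Python 3.11.15, pandas 2.3.3 and statsmodels 0.14.6 were used.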

Additional observations from a re-analysis of the deposited data

Results flagged for a closer look

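For 3 of 36 genes the ratio of mutant over WT went opposite ways in limb and back, by 0.50 or more (log2) in each. This count lies near the background, as 6.45% of all measured genes did the same. The difference itself was not tested, since each group had 1 array. For Efnb2 the limb ratio minus the back ratio was 1.18, and the second probe set had the same signs. For Efna1 it was -1.83, read by 1 probe set above the floor. For Epha4 it was 1.26 in the standing probe set, while its other probe sets had other signs. The limit of 0.50 was set after the values were seen.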

How the results depend on the processing

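The counts of genes past 2-fold rest on few genes and moved with the settings, while the medians of log2 ratios moved little. In the limb pair, 3 genes in the main setting became 9 with no rescaling, 0 with a floor of 200, 1 with the median over probe sets and 8 at 1.5-fold. The median there was -0.064 with the median over probe sets. In the back pair, 2 became 8 with no rescaling, 7 at 1.5-fold, 0 with the median over probe sets, and 1 with quantile normalization, loess, a floor of 200 or the pseudocount. In WT limb over WT back, 7 became 4 with loess, 3 with a floor of 200, 4 with the median over probe sets and 14 at 1.5-fold, and the median of 0.13 was -0.029 in the 2 mutant arrays, which share no array with the WT pair. The 2 genes with both limb arrays at least 2-fold apart from both back arrays became 1 with a floor of 200 or the pseudocount and 6 at 1.5-fold; loess within pairs gives no value for 4 arrays. Of 687 values of single genes under the alternatives, 632 moved by less than the spread between probe sets. That pooled count cannot show how firm the values are, because several settings could hardly move a bright gene. The deposited arrays already had nearly equal trimmed means (1478, 1479, 1477 and 1477), and a changed floor leaves brighter signals as they are. The median over probe sets, which brings in the other probe sets of a gene, moved 20 of 85 values. The ratio of Epha5 in the limb pair turned to 0.79 with no rescaling, where another probe set stands for the gene. Neo1 in WT limb over WT back fell from 1.09 to 0.14 with the median over probe sets. With no rescaling the floor of 100 applies to the deposited signals, and dimmer probe sets pass it. Low signals limit Slit1, Slit3, Draxin, Epha5 and Epha8 most.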
